A study of Mus musculus with 14 samples.

Results

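Osteoclast coupling was examined through 8 genes, chosen by name as the RANK axis (Tnfsf11, Tnfrsf11a and Tnfrsf11b), the ligands of the macrophage colony-stimulating factor receptor (Csf1 and Il34) and 3 products by which osteoclasts are usually recognised (Calcr, Ctsk and Acp5). All 8 were found among the 21734 genes measured, each by a single probe set of the Affymetrix Mouse Gene 1.0 ST array, and no filter on low values was applied. The study profiled osteochondroprogenitors, skeletal precursors of cartilage and bone, taken at embryonic day 16.5 from C57BL/6 mouse limbs by cell sorting, and its question was which genes differ between their sub-populations. All sorted cells carried CD9, and the labels give no treatment or genetic change. The Thy1- groups were OCP1, with CD73, and OCP2, without it (3 arrays each), and the Thy1+ groups were OCP3, without CD73, and OCP4, with it (4 arrays each). CD73 is a surface enzyme that makes adenosine, and Thy1 is a surface glycoprotein of mesenchymal cells among others. The labels do not say how many embryos a sample held or whether replicates were separate embryos, so the p-values rest on a spread between samples that may be technical only. A sorted group is a mixture measured as bulk RNA, so fewer cells of a type and less RNA per cell cannot be told apart.

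Osteoclasts are bone-resorbing cells of the monocyte lineage, and skeletal cells control their formation. Tnfsf11 encodes RANKL, the ligand that binds RANK (Tnfrsf11a) on osteoclast precursors and drives them to fuse and mature, and Tnfrsf11b encodes osteoprotegerin, a secreted decoy that binds RANKL and keeps it from RANK. Csf1 and Il34 are ligands of Csf1r, the receptor that monocyte-lineage cells need to survive. In growing limb bones this system opens the marrow space and removes calcified cartilage.

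The sort was visible in the arrays: Nt5e, which encodes CD73, averaged 12.29 and 13.19 log2 units in OCP1 and OCP4 against 9.30 and 9.46 in OCP2 and OCP3, and Thy1 averaged 12.60 and 13.22 in OCP3 and OCP4 against 9.33 and 9.60 in OCP1 and OCP2. None of the 12 osteoblast, 10 hypertrophic and 10 chondrocyte genes listed lay below the array median on all 14 arrays. Bglap and Dmp1 of the osteoblast list lay below it on 12 and 11 arrays. The trait was not particular to skeletal genes, as it held for the endothelial, pericyte, Schwann and muscle lists (10 genes each) as well. Array medians were 8.36 to 8.44 log2 units, and no detection call was available, so a level is described here by whether it lay under that median. Replicates correlated at 0.9955 to 0.9979 over genes and arrays of different groups at 0.9843 to 0.9945. The number of arrays limits the precision.

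The stretches before the annotated starts of the ligand, its receptor and the protease Ctsk are shown because Tnfsf11 was highest in OCP3 and the other two in OCP4, and because their starts differ in base composition. RefSeq promoter entries (GRCm38.p6) were found for 6 of the 8 genes, with Tnfrsf11b and Il34 not among them. Sequences run 5′ to 3′ in the direction of the gene, and capitals mark the letters of a TATA box read on the opposite strand, at positions -32 to -27 from the start. The stretches are chr14:78308044-78308293 (minus strand) for Tnfsf11, chr1:105780473-105780672 (plus strand) for Tnfrsf11a and chr3:95498960-95499209 (plus strand) for Ctsk. For Tnfrsf11a, 50 further bases lie within the annotated gene span and are not printed.
Tnfsf11: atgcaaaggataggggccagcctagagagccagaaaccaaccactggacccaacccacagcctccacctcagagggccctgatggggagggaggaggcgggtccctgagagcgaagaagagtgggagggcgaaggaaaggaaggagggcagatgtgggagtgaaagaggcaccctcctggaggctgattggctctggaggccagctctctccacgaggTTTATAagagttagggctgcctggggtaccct
Tnfrsf11a: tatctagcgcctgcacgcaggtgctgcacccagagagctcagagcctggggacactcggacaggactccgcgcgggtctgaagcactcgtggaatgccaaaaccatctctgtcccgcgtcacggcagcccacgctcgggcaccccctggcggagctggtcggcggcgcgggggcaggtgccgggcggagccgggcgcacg
Ctsk: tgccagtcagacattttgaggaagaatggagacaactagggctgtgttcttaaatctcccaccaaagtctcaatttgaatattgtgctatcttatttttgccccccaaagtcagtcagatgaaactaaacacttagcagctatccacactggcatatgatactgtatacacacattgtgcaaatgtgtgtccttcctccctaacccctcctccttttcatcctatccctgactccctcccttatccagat

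Over the 250 bases before each entry's start, Tnfrsf11a had 73.6% G and C with 31 CpG pairs, and 94.7% of 32851 mouse promoter entries had a lower G and C content. Tnfsf11 had 60.4% with 4 CpG pairs. Ctsk had 43.2% with 0 CpG pairs, and only 19.0% of entries were lower. The medians over all entries were 52.4% and 6 CpG pairs. Searched on both strands, with overlapping matches allowed, were the RUNX letters TGTGGT (in 14% of all entries) and the AP-1 letters TGANTCA (6.75%). The NF-kB letters GGGNNTTCC (4.98%), the TATA letters TATAAA (12.4%) and the CRE half-site TGACGT (6.47%) were searched likewise. The one match over the entries of the 6 genes was the TATA match of Tnfsf11.

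Each gene differed among the groups in the moderated F-test of limma (8 of 8 at a Benjamini-Hochberg adjusted p under 0.05, against 39.5% of all genes). The F-test call held in all 21 alternative settings for Tnfsf11, Tnfrsf11a, Il34, Ctsk and Acp5, but not for Tnfrsf11b, Csf1 and Calcr, as given with each gene. For CD73 in Thy1- cells (OCP1 minus OCP2), 1 gene was higher (4.43% of all genes) and 1 lower (6.56%). For CD73 in Thy1+ cells (OCP4 minus OCP3), 3 were higher (14.2%) and 2 lower (13.6%). For Thy1 in CD73- cells (OCP3 minus OCP2), 2 were higher (6.63%) and 2 lower (9.48%), and for Thy1 in CD73+ cells (OCP4 minus OCP1), 2 were higher (13.8%) and 2 lower (12.4%). On the diagonals, OCP1 minus OCP3 had 2 higher (11.9%) and 3 lower (12.5%), and OCP4 minus OCP2 had 3 higher (10.4%) and 0 lower (13.8%; at an unadjusted p under 0.05 limma gave 1 lower). The CD73 difference in Thy1+ cells departed from that in Thy1- cells (the interaction) for 4 genes, against 18% of all genes. With 8 genes these counts describe the set and show nothing particular to it, and the comparisons share groups. The shares of all genes given here are also those to set beside the counts of the other lists below. The medians of the 8 log2 differences ran from -0.07 (OCP1 minus OCP3) to 0.18 (OCP3 minus OCP2), beside all-gene medians of 0.03 and -0.03.

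**Figure D1:**
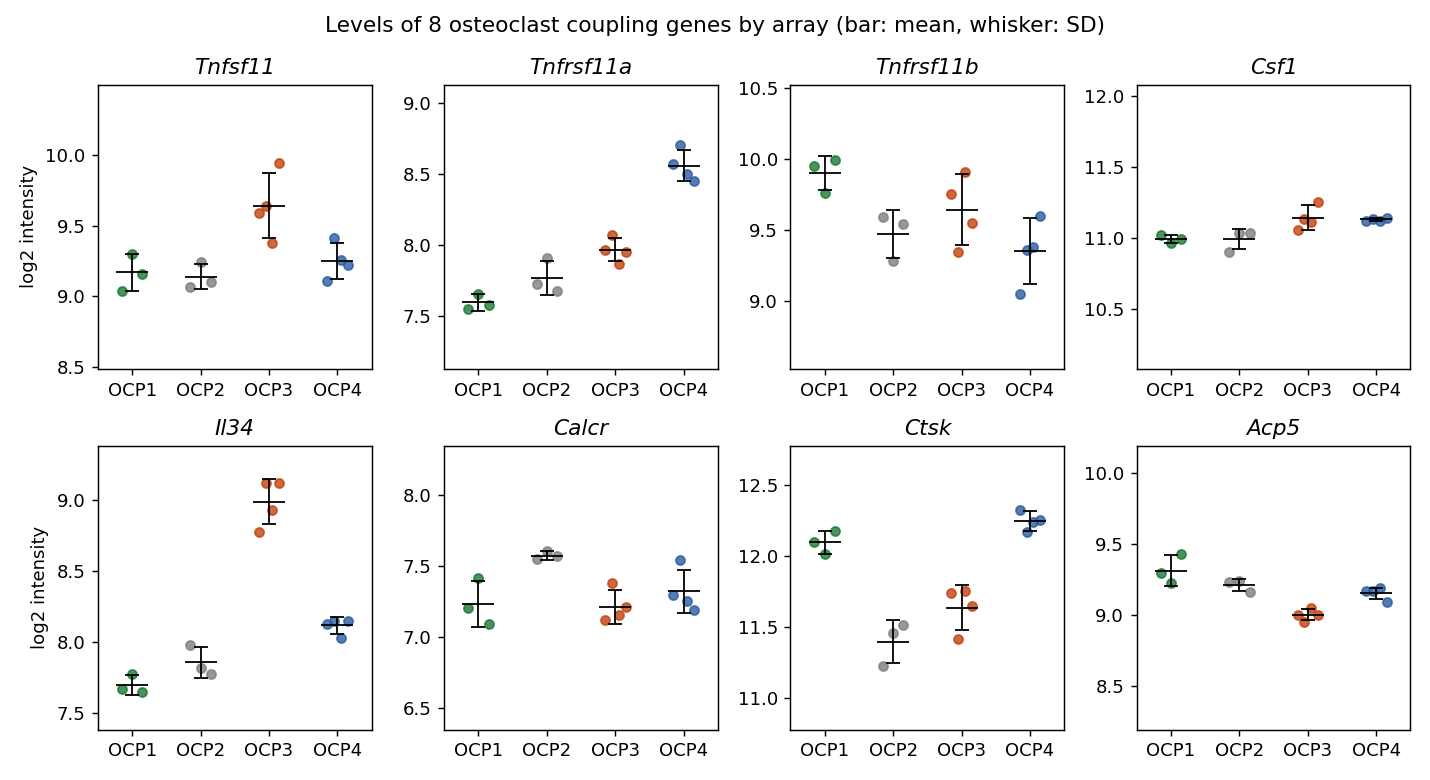
Log2 intensity (vertical axes, each spanning 2 log2 units) of the 8 genes in the 4 sorted groups (horizontal axes), with 1 point per array, a bar at the group mean and whiskers of 1 SD. Tnfsf11 and Il34 sit highest in OCP3, Tnfrsf11a in OCP4, and Ctsk in the CD73+ groups OCP1 and OCP4, while the Csf1 means span 0.15.

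Tnfsf11, the RANKL gene (chr14:78277446-78308043), was highest in OCP3, the CD73- Thy1+ cells. Its log2 intensity was 9.59, 9.64, 9.38 and 9.94 on the 4 OCP3 arrays, 9.11, 9.41, 9.26 and 9.22 in OCP4, 9.04, 9.30 and 9.16 in OCP1, and 9.07, 9.24 and 9.10 in OCP2. Every OCP3 array lay above all OCP1 and OCP2 arrays, whereas the lowest OCP3 array fell just under the highest OCP4 array. OCP3 exceeded OCP2 by 0.50 ± 0.11 (SE) on the log2 scale, or 1.42-fold (adjusted p = 0.00547), and OCP1 was 1.39-fold lower than OCP3 (adjusted p = 0.00552). Within Thy1+ cells, OCP4 was 1.31-fold lower than OCP3 (log2 difference -0.39 ± 0.10, adjusted p = 0.00967). OCP4, OCP1 and OCP2 followed in that order, with neighbours 0.08 and 0.03 apart and adjusted p-values of 0.682 and 0.917. The 3 calls for OCP3 held in every alternative setting. The interaction was -0.42 ± 0.15 and did not pass (adjusted p = 0.0782), but it passed without OCP3 replicate 3 (adjusted p = 0.0251).

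Tnfrsf11a, the RANK receptor gene (chr1:105780673-105849444), was highest in OCP4, the CD73+ Thy1+ cells. Its levels were 8.57, 8.71, 8.50 and 8.45 in OCP4, 7.97, 8.07, 7.87 and 7.95 in OCP3, 7.73, 7.91 and 7.68 in OCP2, and 7.55, 7.66 and 7.58 in OCP1. All OCP4 arrays stood clear of the other 10, which lay below their array medians, and OCP2 and OCP3 overlapped. OCP4 was 1.95-fold higher than OCP1 (log2 difference 0.96 ± 0.07, adjusted p = 2.18e-07), 1.73-fold higher than OCP2 (adjusted p = 1.68e-06) and 1.51-fold higher than OCP3 (adjusted p = 1.01e-05). OCP1 was 1.29-fold lower than OCP3 (adjusted p = 0.00169). CD73 thus went with a higher level in Thy1+ cells, while the difference in Thy1- cells was -0.17 ± 0.08 (adjusted p = 0.197), and the interaction of 0.76 ± 0.10 passed (adjusted p = 1.20e-04). OCP3 and OCP2 differed by 0.20 ± 0.07 (adjusted p = 0.0858), which passed without OCP2 replicate 2 (adjusted p = 0.0333).

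RANK is best known on monocyte-lineage cells, so blood and myeloid markers were read beside it. Of 16 such genes, 10 were higher and 0 lower in OCP4 than in OCP3, and 8 were higher and 0 lower in OCP4 than in OCP1 (at an unadjusted p under 0.05 limma also gave 0 lower in both). Against OCP2, 0 of the 16 passed in either direction (unadjusted, 2 higher and 0 lower), while Tnfrsf11a was 1.73-fold higher in OCP4. The median log2 differences of the list were 0.33, 0.37 and 0.14 in these comparisons, beside all-gene medians of 0.04, 0.01 and 0.01. For the interaction, 9 of the 16 were higher and 0 lower (unadjusted, 11 and 0), where Tnfrsf11a had 0.76 ± 0.10. The median of the list there was 0.61, beside 0.04 for all genes. The summed intensity of the 16 was 5624 to 7198 in OCP4, 5214 to 6852 in OCP2, 4341 to 5841 in OCP3 and 4643 to 5276 in OCP1. The OCP4 and OCP2 ranges thus overlapped. Ptprc, the common leukocyte antigen, and Itgam, an integrin of myeloid cells, were among 7 of the 16 that lay under the array median on every array. The genes did not share an order. Lcp1, an actin-bundling protein of leukocytes and the widest in range of the list, was highest in OCP2 at 9.34, against 8.92 in OCP1, 8.91 in OCP4 and 8.25 in OCP3. Cd14, a monocyte surface protein, was highest in OCP1 (7.80, against 7.65 in OCP4). Fcer1g, an adaptor of Fc receptors, averaged 9.99 in OCP4 against 9.50 in OCP2, 9.38 in OCP3 and 9.24 in OCP1. Lyz2, a lysozyme of macrophages, averaged 9.34 in OCP4, 9.01 in OCP3, 8.98 in OCP2 and 8.53 in OCP1, and OCP4 minus OCP1 was a 1.76-fold difference (adjusted p = 0.00413). The part of these cells in the Tnfrsf11a differences was not tested.

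Tnfrsf11b, the osteoprotegerin gene (chr15:54250619-54278484), was highest in OCP1, the CD73+ Thy1- cells, and lowest in OCP4. The OCP1 arrays read 9.95, 9.76 and 9.99, the OCP3 arrays 9.75, 9.34, 9.91 and 9.55, the OCP2 arrays 9.59, 9.28 and 9.54, and the OCP4 arrays 9.05, 9.36, 9.38 and 9.60. OCP1 did not overlap OCP2 or OCP4, while OCP3 spread across both. OCP4 was 1.46-fold lower than OCP1 (log2 difference -0.55 ± 0.14, adjusted p = 0.00855), the only pair that passed, and this held in every alternative setting. In Thy1- cells OCP1 and OCP2 differed by 0.43 ± 0.15 (95% interval 0.11 to 0.74, adjusted p = 0.0859). In Thy1+ cells OCP4 and OCP3 differed by -0.28 ± 0.13 (adjusted p = 0.119), which passed without OCP3 replicate 2 (adjusted p = 0.0316). The interaction was -0.71 ± 0.20 (adjusted p = 0.021), so the CD73 difference was lower in Thy1+ than in Thy1- cells. That call was lost without OCP1 replicate 1 (adjusted p = 0.0543), OCP1 replicate 3 (0.0534) or OCP2 replicate 2 (0.0616), and the F-test call was lost without OCP1 replicate 1 (0.0883) or OCP1 replicate 3 (0.0903) and with all probe sets (0.0582).

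Most cartilage and growth plate markers were, like Tnfrsf11b, higher in OCP1 than in OCP2 and OCP4, though for Tnfrsf11b only the OCP4 pair passed. Of 10 hypertrophic chondrocyte genes, 9 were higher in OCP1 than in OCP2, where the collagen gene Col10a1 was 12.5-fold higher (adjusted p = 1.29e-05), and 3 were higher and 7 lower in OCP4 than in OCP1. Of 10 chondrocyte genes, 8 were higher in OCP1 than in OCP2 and 10 of 10 lower in OCP4 than in OCP1, with median log2 differences of 0.77 and -2.16. Of 12 osteoblast genes, 9 were higher and 1 lower in OCP1 than in OCP2, and 9 were lower in OCP4 than in OCP1. Summed chondrocyte intensity was 69501 to 81912 in OCP1, 38142 to 48506 in OCP2, 14068 to 22447 in OCP4 and 13728 to 18367 in OCP3. The part of these cells in the Tnfrsf11b level was not tested.

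The ligand and its decoy were then read together on each array, as the log2 intensity of Tnfsf11 minus that of Tnfrsf11b. Because the genes have different probes, the zero of this balance has no meaning, and only its shift between groups can be read. It was -0.91, -0.46 and -0.83 in OCP1, -0.52, -0.05 and -0.44 in OCP2, -0.16, 0.31, -0.52 and 0.39 in OCP3, and 0.05, 0.05, -0.13 and -0.38 in OCP4. Group means were -0.73 ± 0.24 (SD, n = 3), -0.34 ± 0.25 (n = 3), 0.00 ± 0.43 (n = 4) and -0.10 ± 0.21 (n = 4) in that order. The balance was lowest in OCP1, where 2 of 3 arrays lay under all others. OCP3 spread most widely, and its lowest array reached into the OCP1 range, as that of OCP2 did. In OCP3 the ligand was high, and in OCP4 both genes were low relative to their highest groups. No test was made of this balance.

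**Figure D2:**
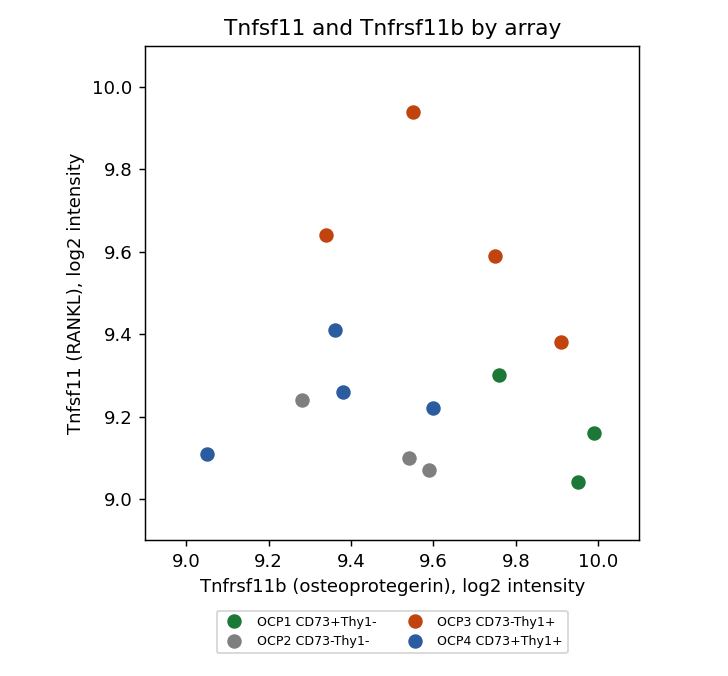
Log2 intensity of Tnfsf11 (vertical axis) against that of Tnfrsf11b (horizontal axis), with 1 point per array coloured by sorted group. OCP1 arrays lie at the lower right (Tnfrsf11b 9.76 to 9.99), and the OCP3 arrays span 9.38 to 9.94 for Tnfsf11, with 3 of the 4 above every other array and the lowest just under an OCP4 array at 9.41, over a wide range of Tnfrsf11b.

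Csf1, the macrophage colony-stimulating factor gene (chr3:107741048-107760469), varied least of the 8, with group means within 0.15 log2 units. It read 11.02, 10.96 and 10.99 in OCP1, 10.90, 11.03 and 11.03 in OCP2, 11.05, 11.13, 11.11 and 11.25 in OCP3, and 11.12, 11.13, 11.12 and 11.14 in OCP4. All Thy1+ arrays were above all Thy1- arrays, by as little as the step from 11.03 to 11.05. No pair passed: the adjusted p was 0.0888 for OCP3 minus OCP2 (0.14 ± 0.05), 0.0747 for OCP4 minus OCP1 (0.14 ± 0.05) and 0.0624 for OCP1 minus OCP3 (-0.15 ± 0.05, 95% interval -0.26 to -0.03). The OCP4 minus OCP1 difference passed without OCP3 replicate 4 (adjusted p = 0.0486), and OCP1 minus OCP3 passed without OCP2 replicate 1 (0.047) or OCP3 replicate 1 (0.0334). The CD73 differences were -0.00 ± 0.06 in Thy1- cells and -0.01 ± 0.05 in Thy1+ cells, with 95% intervals of -0.13 to 0.12 and -0.12 to 0.10. The F-test gave an adjusted p of 0.0483, which was lost in 17 of 21 alternative settings, among them leaving out any single array except OCP3 replicate 1 (up to 0.1, without OCP1 replicate 2), repeated quantile normalization (0.109), all probe sets (0.0735) and median centring (0.072), with values up to 0.159 over all 21.

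Il34, the other ligand of Csf1r (chr8:110741829-110805949), changed most among the 8 genes and was highest in OCP3. Its levels were 8.78, 9.12, 8.93 and 9.12 in OCP3, 8.13, 8.15, 8.03 and 8.15 in OCP4, 7.98, 7.82 and 7.78 in OCP2, and 7.67, 7.78 and 7.65 in OCP1. Only the OCP3 arrays lay above their array medians, and only OCP1 and OCP2 overlapped, where each group's range touched 7.78. OCP1 was 2.44-fold lower than OCP3 (log2 difference -1.29 ± 0.08, adjusted p = 4.01e-08), OCP3 was 2.18-fold higher than OCP2 (adjusted p = 3.44e-07), and OCP4 was 1.83-fold lower than OCP3 (adjusted p = 5.98e-07). OCP4 was 1.33-fold higher than OCP1 (adjusted p = 0.00138). It was also 1.19-fold higher than OCP2 (adjusted p = 0.0333), a call lost without OCP2 replicate 2 (0.107) or 3 (0.133), without OCP4 replicate 1 (0.0708), 2 (0.0727) or 4 (0.0741), or with all probe sets (0.0605). CD73 went with a lower level in Thy1+ cells, against -0.16 ± 0.09 (adjusted p = 0.291) in Thy1- cells, and the interaction of -0.71 ± 0.12 passed (adjusted p = 5.48e-04).

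Markers of pericytes and smooth muscle moved with Tnfsf11 and Il34 in OCP3. Of 10 such genes, 8 were higher and 0 lower in OCP3 than in OCP2, and 10 of 10 were lower in OCP4 than in OCP3, with median log2 differences of 1.41 and -1.91. Their summed intensity was 74253 to 88135 in OCP3, 31386 to 34496 in OCP2, 24292 to 28690 in OCP4 and 22585 to 27160 in OCP1. Skeletal markers moved the same way in part. Of 12 osteoblast genes, 7 were higher and 1 lower in OCP3 than in OCP2 (median 0.52), and 1 was higher and 9 lower in OCP4 than in OCP3 (median -0.64), with a summed intensity of 47815 to 51532 in OCP3, 35863 to 39783 in OCP2, 37732 to 43071 in OCP4 and 54486 to 56477 in OCP1. Of 10 hypertrophic genes, 7 were higher and 3 lower in OCP3 than in OCP2, and 4 were higher and 5 lower in OCP4 than in OCP3. Sp7 and Alpl belong to both the osteoblast and the hypertrophic list. Rgs5, a regulator of G protein signalling in pericytes, averaged 13.28 ± 0.17 in OCP3 and 8.58 ± 0.15 in OCP1. Myh11, the smooth muscle myosin heavy chain, averaged 11.61 in OCP3 and 8.82 in OCP4. Schwann cell genes were high in both CD73- groups, with 9 of 10 lower in OCP4 than in OCP3 and 1 higher and 1 lower in OCP3 than in OCP2. Endothelial genes had 1 of 10 higher and 5 lower in OCP3 than in OCP2, and muscle genes 1 of 10 higher and 6 lower. Of 9 erythroid genes, 2 were lower in OCP3 than in OCP2 and 3 higher in OCP4 than in OCP3. Keratinocyte genes had 0 of 10 called by limma in these pairs (unadjusted, 2 lower and 1 lower). The part of these cells in the Tnfsf11 and Il34 levels was not tested.

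**Figure D3:**
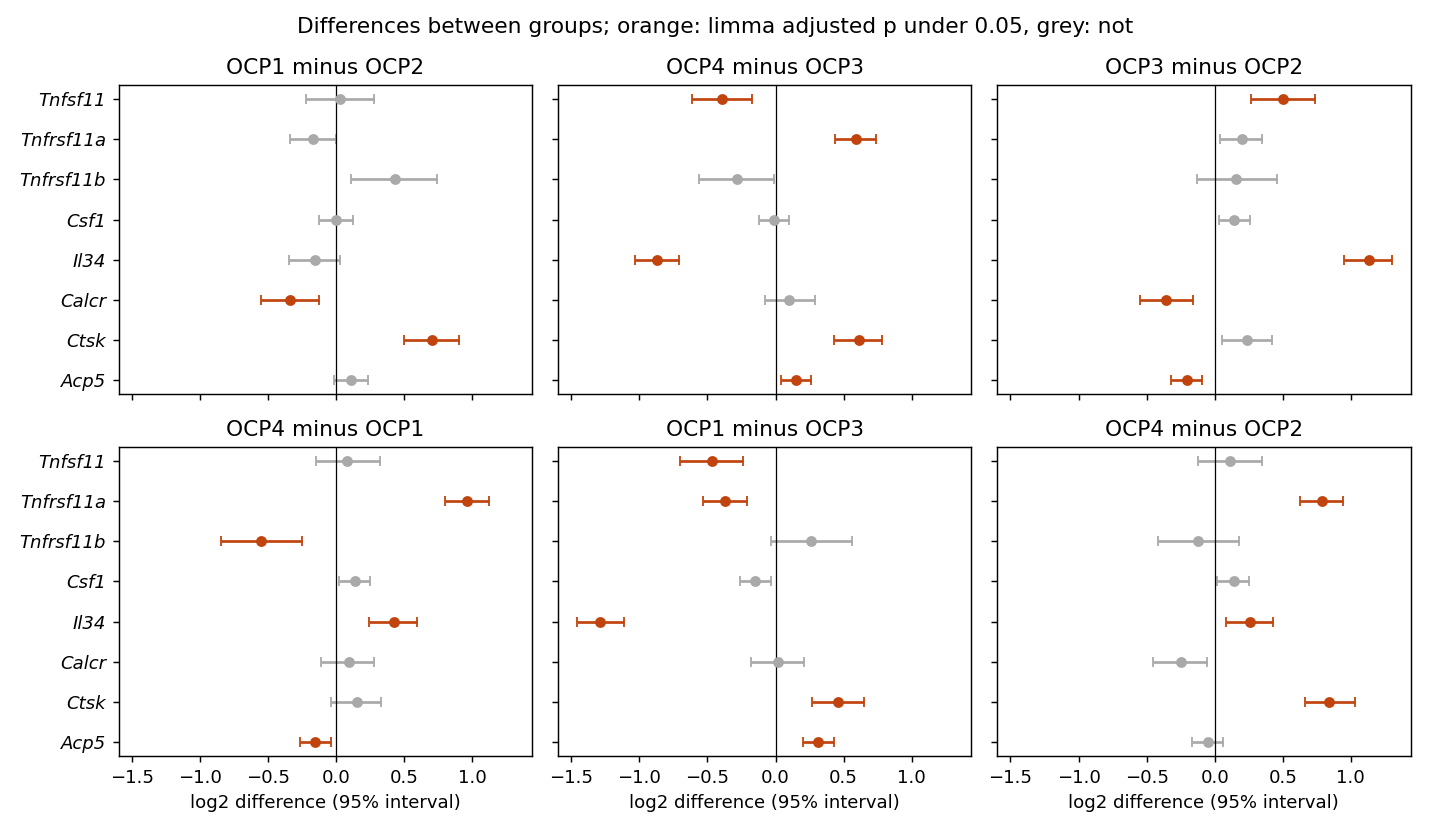
Log2 differences (horizontal axes) of the 8 genes (rows) in the 6 pairs of groups (panels), with points at limma's estimate, bars for 95% intervals and orange where the adjusted p was under 0.05. The widest differences are those of Il34 against OCP3 (-1.29 in OCP1 minus OCP3) and of Tnfrsf11a in OCP4 (0.96 in OCP4 minus OCP1).

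Calcr, the calcitonin receptor gene by which osteoclasts respond to calcitonin (chr6:3685678-3764713), lay below the array median on all 14 arrays. It read 7.55, 7.60 and 7.57 in OCP2, 7.20, 7.41 and 7.09 in OCP1, 7.12, 7.38, 7.15 and 7.21 in OCP3, and 7.29, 7.54, 7.25 and 7.19 in OCP4. The OCP2 arrays lay above all others, the nearest being OCP4 replicate 2 at 7.54. OCP3 was 1.28-fold lower than OCP2 (log2 difference -0.36 ± 0.09, adjusted p = 0.014), which held in every alternative setting. OCP1 was 1.27-fold lower than OCP2 (adjusted p = 0.0358), a call lost without OCP1 replicate 1 (0.123) or 3 (0.136), without OCP2 replicate 1 (0.061), 2 (0.11) or 3 (0.0871), and with all probe sets (0.0734). OCP4 minus OCP2 was -0.25 ± 0.09 (adjusted p = 0.0575) and passed without OCP1 replicate 2 (0.0401), OCP3 replicate 2 (0.0438) or OCP4 replicate 2 (0.0104). The interaction of 0.45 ± 0.13 (adjusted p = 0.026) was lost without OCP1 replicate 1 (0.0647) or 3 (0.0737), OCP2 replicate 2 (0.0586) or 3 (0.0502), or OCP3 replicate 1 (0.0507) or 3 (0.0513), and with all probe sets (0.0518). The F-test call was lost without OCP2 replicate 1 (0.0515), 2 (0.0786) or 3 (0.0678). Skeletal muscle markers were also highest in OCP2: 6 of 10 were lower in OCP1, 6 in OCP3 and 6 in OCP4 than in OCP2, with median log2 differences of -0.63, -0.66 and -0.53. Their summed intensity was 19611 to 22931 in OCP2, 11739 to 17638 in OCP1, 12256 to 18729 in OCP3 and 13012 to 19085 in OCP4. Myh3, the embryonic myosin heavy chain, averaged 9.47 in OCP2 and 8.34, 8.27 and 8.62 in OCP1, OCP3 and OCP4, whereas Des, the muscle filament protein desmin, was highest in OCP3 (11.46). For the interaction, 4 of the 10 muscle genes were higher and 1 lower. Endothelial genes moved likewise: 7, 5 and 6 of 10 were lower in OCP1, OCP3 and OCP4 than in OCP2, and 1 was higher in each. Their median log2 differences were -1.09, -0.38 and -0.93, and their interaction had 4 higher and 0 lower (unadjusted, 6 and 0). Among 16 blood and myeloid genes in OCP1 minus OCP2, 1 was higher and 1 lower (unadjusted, 1 and 6), with a median of -0.26. The part of these cells in the Calcr level was not tested.

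Ctsk, which encodes cathepsin K, the collagen-degrading protease of osteoclasts that mesenchymal cells of the periosteum also make (chr3:95499210-95509387), was higher in both CD73+ groups. Its levels were 12.33, 12.17, 12.24 and 12.26 in OCP4, 12.10, 12.02 and 12.18 in OCP1, 11.74, 11.42, 11.76 and 11.65 in OCP3, and 11.23, 11.46 and 11.52 in OCP2. Every CD73+ array lay above every CD73- array, and OCP4 overlapped OCP1 as OCP3 overlapped OCP2. In Thy1- cells OCP1 was 1.62-fold higher than OCP2 (log2 difference 0.70 ± 0.09, adjusted p = 2.29e-04), and in Thy1+ cells OCP4 was 1.52-fold higher than OCP3 (0.61 ± 0.08, adjusted p = 4.22e-05). The interaction was -0.09 ± 0.12 with a 95% interval of -0.36 to 0.17 (adjusted p = 0.684). On the diagonals, OCP4 was 1.80-fold higher than OCP2 (adjusted p = 4.45e-06) and OCP1 1.38-fold higher than OCP3 (adjusted p = 0.00123). The Thy1 differences were 0.24 ± 0.09 in CD73- cells (adjusted p = 0.0826) and 0.15 ± 0.09 in CD73+ cells (adjusted p = 0.261), the former passing without OCP3 replicate 2 (adjusted p = 0.0124). Of 16 blood and myeloid genes, 1 was higher and 1 lower in OCP1 than in OCP2 (unadjusted, 1 and 6; median -0.26), where Ctsk differed by 0.70. In OCP4 minus OCP3, where Ctsk differed by 0.61, 10 were higher and 0 lower (unadjusted, 12 and 0; median 0.33). The part of these cells in the Ctsk level was not tested.

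Acp5, which encodes tartrate-resistant acid phosphatase, the enzyme behind the usual osteoclast stain (chr9:22126727-22135746), spanned 0.31 log2 units between group means. The OCP1 arrays read 9.29, 9.22 and 9.43, the OCP2 arrays 9.23, 9.24 and 9.16, the OCP4 arrays 9.17, 9.17, 9.19 and 9.09, and the OCP3 arrays 9.00, 8.95, 9.05 and 9.00. OCP3 lay below all other arrays, OCP1 overlapped OCP2, and OCP2 overlapped OCP4. OCP1 was 1.24-fold higher than OCP3 (log2 difference 0.31 ± 0.05, adjusted p = 5.98e-04), which held in every alternative setting. OCP3 was 1.15-fold lower than OCP2 (adjusted p = 0.0174), a call lost without OCP2 replicate 1 (0.0616) or 2 (0.0646). OCP4 was 1.11-fold higher than OCP3 (adjusted p = 0.0351), lost without OCP3 replicate 1 (0.0677), 2 (0.0748) or 4 (0.0667) or OCP4 replicate 1 (0.0752), 2 (0.0768) or 3 (0.0818), and with all probe sets (0.0514), trended robust eBayes (0.054) or array weights (0.0573). That call was kept in 12 of 22 alternative settings. OCP4 was 1.12-fold lower than OCP1 (adjusted p = 0.0416), a call kept in 8 of 22 alternative settings. It was lost with median centring (0.0846), all probe sets (0.0627), trended robust eBayes (0.0633) and the arrays of both groups alone (0.0897), and without 9 of the 14 arrays in turn: OCP1 replicates 1 (0.0755) and 3 (0.22), OCP2 replicate 2 (0.0514), OCP3 replicates 1 (0.0508) and 4 (0.0536), and OCP4 replicates 1 (0.07), 2 (0.0655), 3 (0.0529) and 4 (0.107).

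The genes listed here as osteoclast markers lay low in part. Of 7 such genes, Oscar, an osteoclast-associated receptor, Atp6v0d2, a proton pump subunit, and the fusion proteins Dcstamp (Tm7sf4 in the file) and Ocstamp (4833422F24Rik) lay under the array median on all 14 arrays. Atp6v0d2 averaged 5.28 to 5.53 over the 4 groups, under the lower quartile of every array (6.74 to 6.84). Of the others, Siglec15 (group means 8.78 to 8.88) and Itgb3 lay under the array median on 0 of 14 arrays, and Csf1r on 3. Only Itgb3, the integrin beta chain of the vitronectin receptor, passed the F-test (adjusted p = 3.60e-04), with means of 10.43, 10.70, 10.96 and 11.08 in OCP1 to OCP4. The summed intensity of the 7 was 2678 to 2851 in OCP1, 2952 to 3194 in OCP2, 3219 to 3622 in OCP3 and 3479 to 4018 in OCP4. In OCP4 1 of the 7 was higher than in OCP3 (Csf1r), 2 higher than in OCP1 (Itgb3 and Csf1r) and 1 higher than in OCP2 (Itgb3), and 1 was lower in OCP1 than in OCP3 (Itgb3). Neither OCP1 minus OCP2 nor OCP3 minus OCP2 had any of the 7 called in either direction (0 of 7 by limma, with 1 lower and 1 higher, respectively, at an unadjusted p under 0.05). Csf1r, the receptor of Csf1 and Il34, averaged 8.37 ± 0.13, 8.60 ± 0.26, 8.46 ± 0.24 and 8.85 ± 0.18 in OCP1 to OCP4 and was 1.30-fold higher in OCP4 than in OCP3 (adjusted p = 0.0432). As a receptor of monocyte-lineage cells, Csf1r does not mark osteoclasts alone, and it is also counted in the blood and myeloid list.

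In the wider list of 17 osteoclast genes, 6 passed the F-test, against 39.5% of all genes. Mmp9, a gelatinase that osteoclasts and other invading cells make, averaged 12.42 ± 0.09 in OCP3 against 10.60 ± 0.28 in OCP4, 10.22 ± 0.11 in OCP1 and 9.61 ± 0.17 in OCP2, and was 6.98-fold higher in OCP3 than in OCP2 (adjusted p = 3.51e-09). Nfatc1, the transcription factor that RANK signalling induces in osteoclasts, was highest in OCP1 (11.50 ± 0.03) and 1.94-fold lower in OCP4 (10.55 ± 0.10, adjusted p = 3.71e-07), the reverse of the Tnfrsf11a order between these groups. Tcirg1, a proton pump subunit, and Ostm1, a chloride channel partner, were highest in OCP3 at 11.02 and 10.55. The kinase gene Src was highest there too, at 10.79, and 1.32-fold lower in OCP4 (adjusted p = 2.72e-05). By pair, the list had 2 higher and 2 lower in OCP1 minus OCP2, 3 and 5 in OCP4 minus OCP3, 4 and 0 in OCP3 minus OCP2 (unadjusted, 5 and 1), and 4 and 1 in OCP4 minus OCP1. Its median differences in these pairs were -0.04, 0.04, 0.01 and 0.09, beside all-gene medians of -0.01, 0.04, -0.03 and 0.01.

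**Figure D4:**
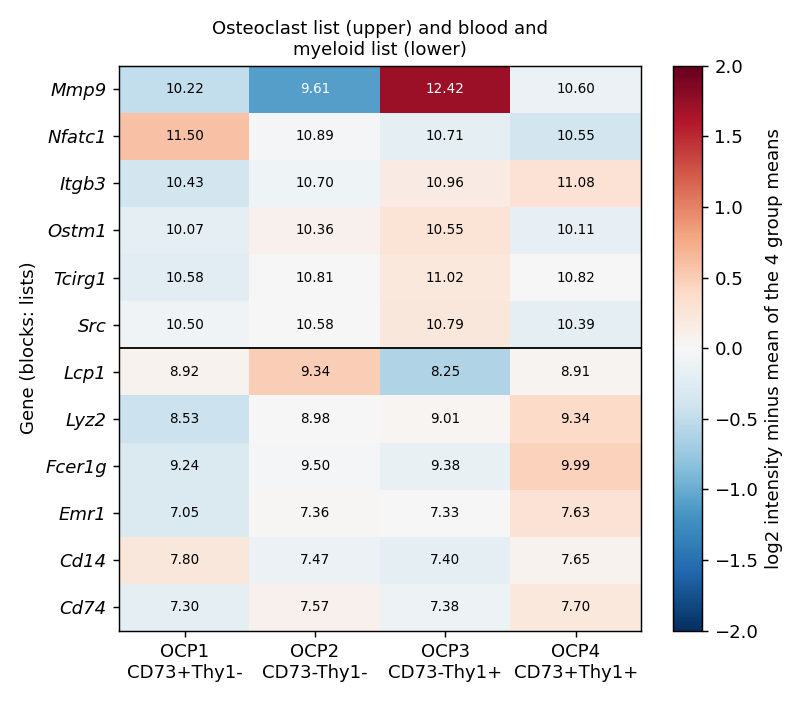
Group means of log2 intensity (printed in each cell) for 6 osteoclast-list genes and 6 blood and myeloid genes, coloured by the distance of each group from the mean of the 4 group means. Mmp9 reaches 12.42 in OCP3 and Nfatc1 11.50 in OCP1, while Lyz2, Fcer1g, Emr1 and Cd74 are highest in OCP4, Lcp1 in OCP2 and Cd14 in OCP1.

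Of 19 genes that carry the signal inside the cell or modify it, 9 passed the F-test, against 39.5% of all genes. No pair had more than 4 called in a direction. Traf6, the adaptor that binds RANK, followed the receptor, with means of 10.16, 10.34, 10.36 and 10.51 in OCP1 to OCP4 and a 1.27-fold higher level in OCP4 than in OCP1 (adjusted p = 2.10e-04). Mitf, a transcription factor of osteoclasts and pigment cells, was 1.24-fold higher in OCP4 than in OCP3 (adjusted p = 9.07e-04). Lgr4, described as another receptor for RANKL that dampens its signal, was highest in OCP1 (11.93 ± 0.02) and 1.89-fold lower in OCP4 (11.01 ± 0.12, adjusted p = 1.09e-05). Gab2, a scaffold that RANK recruits, was lowest in OCP1 (10.73 ± 0.12) and 1.68-fold lower there than in OCP2 (adjusted p = 4.27e-05). Fos, an AP-1 subunit that responds to many stimuli, including cell dissociation, was 1.24-fold higher in OCP1 than in OCP2 (adjusted p = 0.0144). The median difference of the list ran from 0.00 to 0.04 over the 6 pairs, beside -0.03 to 0.04 for all genes.

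Regulators of Tnfsf11 or Tnfrsf11b in skeletal cells were read beside them, as 22 genes of transcription factors, receptors and a ligand (Pthlh). Of these, 18 passed the F-test, against 39.5% of all genes. Runx2 and Sp7, transcription factors of the osteoblast lineage, were highest in OCP3 (11.62 ± 0.10 and 10.58 ± 0.20) and lowest in OCP2 (10.08 ± 0.20 and 8.91 ± 0.08), and OCP3 was also where Tnfsf11 was highest. Osmr, the oncostatin M receptor, was also highest in OCP3 at 10.55 ± 0.08, and 3.07-fold lower in OCP4 (adjusted p = 6.67e-09). In contrast, Pth1r and Vdr, receptors of parathyroid hormone and vitamin D through which RANKL is induced, were highest in OCP4. Pth1r averaged 12.62 ± 0.04 there against 11.26 ± 0.03 in OCP3, a 2.56-fold difference (adjusted p = 2.59e-11) in the opposite direction to Tnfsf11. Vdr was 1.62-fold higher in OCP4 than in OCP3 (adjusted p = 1.72e-05). Ebf2, a factor reported to raise osteoprotegerin in mouse osteoblast progenitors, was highest in OCP2 (12.49 ± 0.02) and 3.74-fold lower in OCP4 (10.58 ± 0.34, adjusted p = 9.60e-08). OCP4 had 5 of the 22 higher and 10 lower than OCP3, with a median of -0.06 beside 0.04 for all genes, and OCP3 had 7 higher and 1 lower than OCP2, with 0.11 beside -0.03. The part of these regulators in the Tnfsf11 and Tnfrsf11b levels was not tested.

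Of 24 other genes of signalling between osteoclasts and bone-forming cells, 21 passed the F-test, against 39.5% of all genes. Most encode secreted or surface factors, and receptors (Plxnb1 and Ephb4) and prostaglandin enzymes (Ptgs2 and Ptges) are among them. Il6 and Ccl2, a cytokine and a monocyte attractant, were highest in OCP3, where Tnfsf11 and Il34 were highest. Il6 averaged 10.95 ± 0.46 in OCP3, 9.16 ± 0.23 in OCP4, 8.63 ± 0.26 in OCP2 and 7.99 ± 0.22 in OCP1, and OCP1 was 7.81-fold lower than OCP3 (adjusted p = 1.33e-07). Ccl2 averaged 11.03 ± 0.37 in OCP3 and was 3.97-fold higher there than in OCP2 (adjusted p = 5.15e-06). Spp1, the matrix protein osteopontin to which osteoclasts attach, was highest in OCP1 (12.61 ± 0.05) and 4.90-fold lower in OCP4 (adjusted p = 1.21e-07). Bmp6, a bone morphogenetic protein, was also highest in OCP1 (11.09 ± 0.19), 1.52-fold above OCP2 (adjusted p = 0.00104). Slit3, a secreted guidance factor described as osteoclast-derived in mice, was highest in OCP4 (13.13 ± 0.08), 2.48-fold above OCP2 (adjusted p = 6.23e-09). Sfrp1, a secreted Wnt antagonist that also binds RANKL, was lowest in OCP4 (11.47 ± 0.20) and 2.19-fold below OCP2 (adjusted p = 2.91e-07). By pair, 8 rose and 2 fell in OCP1 minus OCP2, 7 and 8 in OCP4 minus OCP3, 9 and 7 in OCP3 minus OCP2, and 8 and 11 in OCP4 minus OCP1, with medians of 0.09, 0.01, -0.04 and -0.01.

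**Figure D5:**
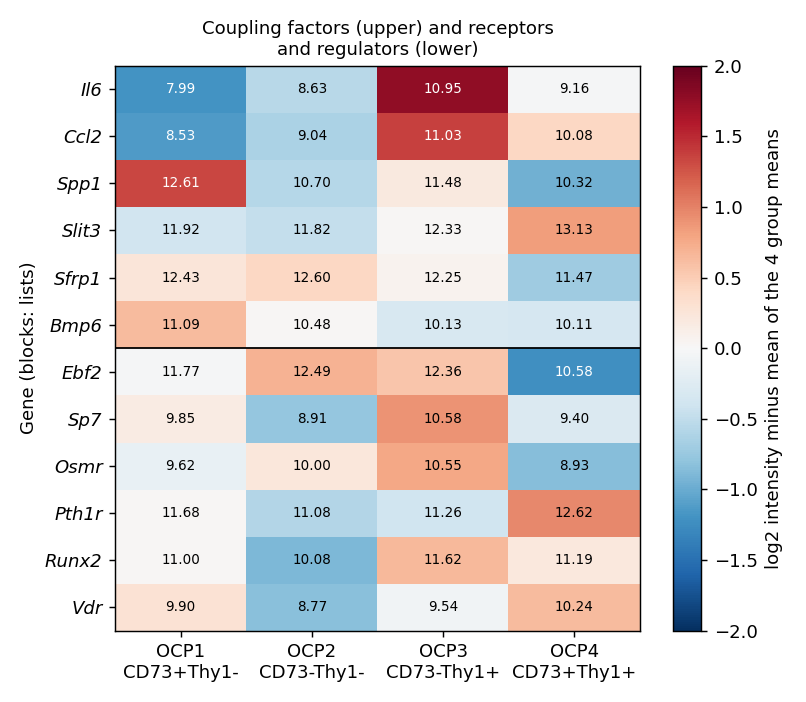
Group means of log2 intensity (printed in each cell) for 6 coupling factors and 6 regulators of Tnfsf11 or Tnfrsf11b. Colour gives the distance of each group from the mean of the 4 group means. Il6, Ccl2, Sp7, Osmr and Runx2 are highest in OCP3, as Tnfsf11 was, and Pth1r (12.62) and Vdr (10.24) in OCP4.

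Relatives of the 8 genes were read last. Among 8 colony-stimulating factors, their receptors and allied growth factors, 2 passed the F-test: Kitl, the ligand of the Kit receptor, was 1.74-fold higher in OCP4 (12.58 ± 0.11) than in OCP3 (11.78 ± 0.10, adjusted p = 3.59e-06), and Csf2ra, a GM-CSF receptor chain, was 1.20-fold higher in OCP1 than in OCP3 (adjusted p = 0.00699). Csf2, Csf3 and Csf3r lay under the array median on every array. Of 16 other cathepsins, acid phosphatases and cystatins, 11 passed the F-test, against 39.5% of all genes. Ctsh, a lysosomal aminopeptidase, averaged 11.28 ± 0.03 in OCP4 against 9.02 to 9.56 in the other groups, 4.80-fold above OCP3 (adjusted p = 2.59e-11). In Thy1- cells, where Ctsk was higher with CD73, Ctsh was 1.40-fold lower (adjusted p = 0.00111), and so were Ctsc (1.67-fold, adjusted p = 0.00116) and Ctso (1.34-fold, adjusted p = 9.56e-05). Ctsd, the aspartic protease cathepsin D, was 1.14-fold higher there (adjusted p = 0.014), the only one of the 16 that rose in that pair, against 5 that fell. Acp6, a lysophosphatidic acid phosphatase, was highest in OCP4 at 10.74.

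Genes with the array profile most like each of 4 members were found as those with the smallest root mean square distance between gene-centred log2 values over the 14 arrays. The stated rule applied to Il34 alone, and Tnfrsf11a, Ctsk and Tnfsf11 were added after their values were seen. For Il34 the nearest were Neurl1B (distance 0.115 log2 units), a ubiquitin ligase gene, Phox2a (0.123), a homeobox gene, and Nab1 (0.136), a transcriptional corepressor gene. Nearest to Tnfrsf11a were Peli1 (0.089), a ubiquitin ligase gene, with means of 11.30, 11.32, 11.66 and 12.24 in OCP1 to OCP4, and Tbx1 (0.106), a T-box gene. Ptx3 (0.076), a pentraxin gene, was nearest to Ctsk, with means of 9.79, 9.08, 9.44 and 9.97, followed by Creb3l1 (0.130), a transcription factor of the secretory pathway. The nearest to Tnfsf11 were 1810041L15Rik (0.115), Fmo2 (0.124), a flavin monooxygenase gene, and Atg4a (0.125), an autophagy protease gene. These are descriptions over arrays that share the sort, with no test.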

How the data were processed

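RNA from 14 sorted samples was hybridised to Affymetrix Mouse Gene 1.0 ST arrays. Per the submitters' processing notes, the authors used RMA and limma; neither lists a version, and no genome build is stated in the sources used here. For intensities, the deposited value table gives each array 1 linear value per probe set, after the RMA that the authors name, and log2 was taken here; the plan had assumed deposited log2 values. The authors' deposited comparison table gives symbols, log2 differences (all OCP4 minus the other group) and adjusted p-values. A probe number there is the row of the value table (agreement within 5.00e-08 log2 units).

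Of 35556 probe sets, 25254 had a symbol; 26 symbols turned into dates were treated as unnamed. The brightest probe set of a gene was used. All arrays entered a single linear model of 4 group means in limma 3.58.1 (R 4.3.3, statmod 1.5.0; 10 residual degrees of freedom), and Benjamini-Hochberg adjustment ran over 21734 genes within each comparison (threshold 0.05). The script was tested on simulated data. Folds are 2 to the power of the log2 difference, given with its standard error; levels are means and SDs of log2 intensity. Intervals are 95% and not adjusted for the number of genes.

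The 8 genes and the 18 other lists (223 of 224 entries matched) were chosen with earlier results of these data known. Some genes are in several lists, so counts of different lists are not separate observations. Among them are Runx2 and Sp7 (osteoblast genes and Tnfsf11 regulators), Spp1 (osteoblast and coupling), Des (pericyte and muscle), Nfatc1 (osteoclast and RANK signalling) and Csf1r. Named were, per list, up to 6 genes past the F-test with the widest range of group means (up to 2 for markers of other cell types), beside genes needed to state a count. Gene coordinates are from the RefSeq gene table for GRCm38.p6. Alternatives were median centring, repeated quantile normalization, a filter on the lowest 25% of genes, all probe sets, trended robust eBayes, array weights, the arrays of both groups alone, a replicate block, and each array left out in turn. The sources used here name no batch or scan day, and 0 columns of per-sample values were left unused.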

Additional observations from a re-analysis of the deposited data

Results flagged for a closer look

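The difference between CD73+ and CD73- cells was not the same in Thy1+ as in Thy1- cells for 4 genes, by the interaction term of limma (adjusted p under 0.05). The difference in Thy1+ cells minus that in Thy1- cells was 0.76 log2 units for Tnfrsf11a, -0.71 for Tnfrsf11b, -0.71 for Il34 and 0.45 for Calcr. The Tnfrsf11a and Il34 values kept their call in all 21 alternative settings. The Tnfrsf11b call was lost without OCP1 replicate 1 (adjusted p = 0.0543), OCP1 replicate 3 (0.0534) or OCP2 replicate 2 (0.0616), and the Calcr call in 7 settings, with adjusted p-values up to 0.0737.

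One array stood apart within its group. The lowest OCP4 array for Il34, at 8.03 log2 units, was separated from the next by 0.843 of the group's range, above Dixon's critical value of 0.829, though that range is only 8.03 to 8.15. In all, 18 groups of 4 arrays were examined in this way (OCP3 and OCP4 for the 8 genes and the balance of Tnfsf11 and Tnfrsf11b), and chance flags about 1 in 20 groups.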

How the results depend on the processing

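Of 56 member results (8 genes in 6 pairs and the interaction), 27 were called, 20 of them in every alternative setting; of 29 not called, 21 stayed so in every one. No called result changed sign (0 of 27). With all probe sets, which adjusts over more tests, 1 gene was called in OCP1 minus OCP2 in place of 2. Leaving out 1 array at a time gave 1 to 2 genes there and 2 to 4 for the interaction, where 4 were called. All genes called in OCP1 minus OCP2 fell from 2388 to 1477 without OCP1 replicate 1 and 1486 without OCP2 replicate 2. Array weights (adjusted p = 0.042) and the arrays of both groups alone (0.0344) brought the Tnfrsf11b difference of 0.43 in OCP1 minus OCP2 past the threshold. Array weights did so for Csf1 in OCP4 minus OCP1 (0.0432) and OCP1 minus OCP3 (0.0311) and Calcr in OCP4 minus OCP2 (0.0158), as did leaving out the lowest 25% of genes (0.0488, 0.0403 and 0.0427). Trended robust eBayes did so for Ctsk in OCP3 minus OCP2 (0.0482) and Csf1 in OCP1 minus OCP3 (0.0407).

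The labels number the replicates and do not say whether the numbers pair the samples. Over all genes, deviations of 19 same-numbered pairs correlated at -0.42 to 0.40 (median 0.06, other pairs 0.01). By this measure, 2 of 14 arrays correlated best with their own number. A correlation over all genes does not settle pairing for single genes. Replicate 2 was the highest array of every group for Tnfrsf11a (7.66, 7.91, 8.07 and 8.71 in OCP1 to OCP4). It was so for Calcr too (7.41, 7.60, 7.38 and 7.54), and for no other of the 8 genes. With the replicate number as a block, 2 genes were called in OCP1 minus OCP2, 4 in OCP4 minus OCP3, 5 in OCP3 minus OCP2, 3 in OCP4 minus OCP1, 5 in OCP1 minus OCP3, 3 in OCP4 minus OCP2, 5 for the interaction and 7 by the F-test. Calls absent under the block were those of Acp5 in OCP4 minus OCP3 (adjusted p = 0.0527) and OCP4 minus OCP1 (0.0909), Il34 in OCP4 minus OCP2 (0.0645) and Csf1 by the F-test (0.159). Calls gained were Tnfrsf11a in OCP3 minus OCP2 (0.0154), Calcr in OCP4 minus OCP2 (0.0249) and the Tnfsf11 interaction (0.0408).

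The Csf1 differences, and those of Acp5 between OCP4 and OCP1 or OCP3, lie close to the threshold. Calcr lies under the array median on all 14 arrays, and Tnfrsf11a and Il34 on 10 of 14 each. Probe signal over background limits what can be read there.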
